A study of Penicillium oxalicum with 72 samples.

Results

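The *Penicillium oxalicum* transcriptome after 48 h on methylcellulose (MC), against that after 4 h on MC, is described here from 6 of the 72 libraries of the series, 3 for MC 48 h and 3 for MC 4 h. Their groups were taken from the labels. Both groups came from mycelium of MuKu70, the Δ*PoxKu70* mutant of the filamentous fungus, and that deletion, which lowers non-homologous end joining so that genes can be targeted, was carried by every condition of the study, controls included. Hyphae pre-grown on glucose were moved into basic medium with 1% MC and shaken for 48 h or 4 h, so the 48 h cultures also had a longer time since glucose. MC at 12 h and 24 h (3 libraries each) gave the steps between, and cultures at 48 h and 4 h in basic medium with no carbon source (NC), with 1% 2-hydroxyethyl cellulose (HEC) or with 1% Avicel (AV), 3 libraries per condition, gave the comparisons. The 12 HEC libraries are named HEC in their short names while the wording of their titles says methyl cellulose, and the short names were followed. The libraries of a group are given as biological replicates, but the labels do not say how the cultures were kept apart, so p-values measure the spread between these libraries.

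MC is cellulose whose hydroxyl groups carry methyl ethers, HEC carries hydroxyethyl ethers, and Avicel is microcrystalline cellulose without substituents. Filamentous fungi degrade cellulose outside the cell: endoglucanases cut within the chain, cellobiohydrolases release cellobiose from the chain ends, lytic monooxygenases and swollenin open the surface, and β-glucosidases split cellobiose into glucose. Cellodextrin transporters bring the short sugars into the hypha. The genes are repressed in the presence of glucose through CreA and are switched on by zinc-cluster activators such as ClrB. For *P. oxalicum* the study describes the zinc-cluster protein XlnR as raising xylanase production and lowering cellulase production. A hypha that runs short of nutrients can also form conidia, a program led by the transcription factors BrlA and AbaA in *Aspergillus nidulans*, and can digest its own wall with chitinases and glucanases.

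Values are FPKM, the deposited expression unit (mapped fragments scaled by gene length and library size), so levels can be set side by side between genes. The 6 libraries listed 9341 to 9470 genes each, and their FPKM summed to between 984964 and 1051835 at 48 h and between 973466 and 995382 at 4 h. Read totals were not given, but the value of a single read in genes of low level put the depth of the 48 h libraries at 0.71, 0.79 and 0.65 of MC 4 h library 1, and that of the 4 h libraries at 1, 1 and 0.98 of it. Because these were whole mycelia, fewer hyphae of a kind and less RNA per hypha cannot be told apart.

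Of 8898 genes tested, 2596 (29.2%) differed between 48 h and 4 h at an unadjusted p of at most 0.05 and an absolute change of at least 1 on the log2(FPKM + 1) scale, 1507 of them higher (16.9%) and 1089 lower (12.2%) at 48 h. With the p adjusted by Benjamini-Hochberg over all genes (limma), 2594 of these calls were kept. The median change over all genes was 0.12 on the log2 scale. The split depended on scaling. When libraries were scaled by the median of ratios, which moved that median to 0.01, there were 1352 higher and 1296 lower calls. When they were scaled to the FPKM total without MEivory, a co-expression module that the study built and that holds many cellulase genes, the median was 0.44 and there were 2274 higher and 695 lower calls.

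**Figure D1:**
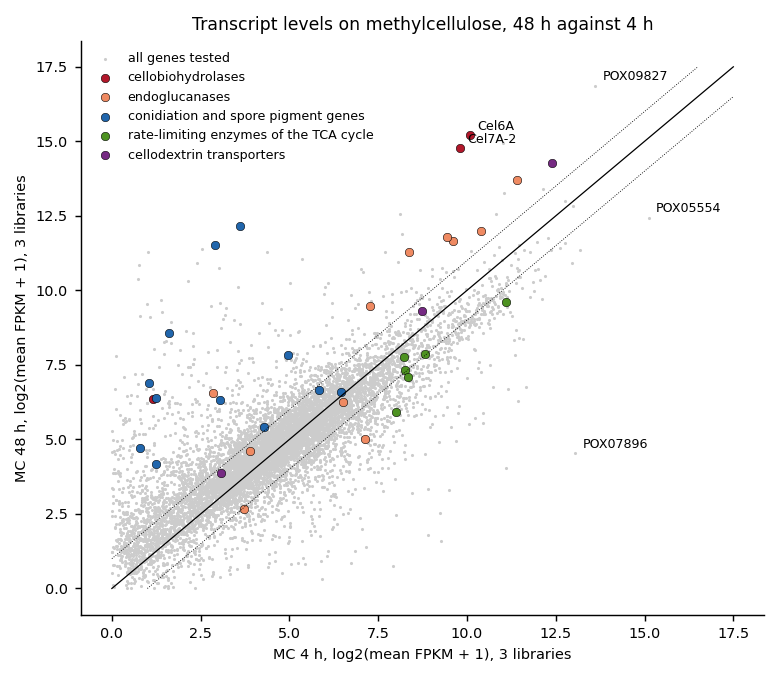
Mean level of each gene at MC 48 h (y axis) against MC 4 h (x axis), both as log2(mean FPKM + 1) over 3 libraries, with 5 gene lists coloured, the diagonal drawn and dotted lines at a change of 1. The cellobiohydrolases and most conidiation genes lie above the upper dotted line, the tricarboxylic acid cycle genes lie below the diagonal, and *POX09827* is the highest gene at 48 h.

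A large share of the transcript pool was taken over by a few genes. *POX09827*, listed only as a hypothetical protein of MEivory, was the highest gene at 48 h, with 139228, 87987 and 130689 FPKM at 48 h against 14916, 9408 and 13115 FPKM at 4 h. It held 13.2%, 8.93% and 12.8% of the FPKM total at 48 h and 1.5%, 0.966% and 1.32% at 4 h. No library at 48 h overlapped one at 4 h, the mean was 9.56-fold higher, and the change was 3.25 ± 0.23 (log2, SE; adjusted p = 2.0e-06). It was not called in either of the first steps, at 10270 FPKM on average at 12 h and 8171 at 24 h, so its rise fell between 24 h and 48 h (3.84).

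The other leaders of the pool changed too. *POX01764*, a gene without annotation in the sources used, had 32010, 29118 and 32432 FPKM at 48 h and 2302, 1803 and 2051 FPKM at 4 h (log2 change 3.93). At 4 h the highest gene was the likewise unannotated *POX05554*, with 5436, 6255 and 4915 FPKM at 48 h and 39552, 35499 and 31305 FPKM at 4 h (−2.68). The largest fall of all was that of *POX07896*, also unannotated, at 23.3, 21.7 and 21.4 FPKM at 48 h against 7618, 5642 and 12215 FPKM at 4 h (−8.45), and its mean was already 21.6 FPKM at 12 h. The carbohydrate-active enzymes listed by the study (392 genes) together held 13.6%, 12.9% and 15.2% of the total at 48 h and 3.75%, 3.49% and 3.69% at 4 h, and of the 361 tested, 126 rose and 61 fell, with a median of 0.43.

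Among the cellulases, 3 of 3 cellobiohydrolases rose, with a median of 5.12. *POX04786/Cel6A*, which acts from the non-reducing chain end, had 38891, 31353 and 42615 FPKM at 48 h and 1112, 895 and 1245 FPKM at 4 h. That is a 34.7-fold higher mean, with a log2 change of 5.12 ± 0.17 (adjusted p = 1.5e-08). *POX05587/Cel7A-2*, the main enzyme acting from the reducing end, had 27541, 26146 and 30519 FPKM at 48 h and 799, 726 and 1133 FPKM at 4 h (31.7-fold, 5.01 ± 0.18, adjusted p = 2.0e-08). *Cel6A* was one of the 3 highest genes of the whole transcriptome at 48 h, and no library of one time overlapped the other for either gene. *POX02490/Cel7A-1*, a second family 7 gene, was far lower in level but changed as much, with 83, 52.7 and 107 FPKM at 48 h and 0.90, 1.03 and 1.79 FPKM at 4 h (5.16 ± 0.25). Summed, the 3 genes held 6.32%, 5.84% and 7.15% of the FPKM total at 48 h and 0.192%, 0.167% and 0.239% at 4 h (33.4-fold, exact permutation test, two-sided p = 0.1, the smallest that 3 against 3 allows).

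Endoglucanases changed less than the cellobiohydrolases. Of 11 listed, 7 rose and 2 fell, with a median of 2.06, and their summed FPKM was 4.39-fold higher at 48 h. *POX01166/Cel5B* was the most abundant, with 13709, 11044 and 15081 FPKM at 48 h and 2862, 2024 and 3326 FPKM at 4 h (2.30 ± 0.20, adjusted p = 8.3e-06). *POX06147/Cel5A* (2613, 1755 and 3155 FPKM at 48 h, 321, 257 and 419 at 4 h) had a change of 2.90 ± 0.23. The groups were apart for each, and *POX05571/Cel7B* (2.37), *POX05570/Cel45A* (2.06) and *POX01896/Cel5C* (1.62) rose with them. The xyloglucan-specific *POX06983*, whose substrate is the side-chain bearing glucan of plant walls, had 743, 544 and 851 FPKM at 48 h and 142, 122 and 191 at 4 h (2.22 ± 0.20). *POX04137* and *POX01206*, putative endoglucanases of lower level, fell by 2.13 and 1.04. The call of *POX01206* was lost without MC 4 h library 3 (−0.91), and *POX07535/Cel12A* (0.71) and *POX00963* (−0.25) were not called.

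Among the 9 β-glucosidases, 5 rose and none fell, with a median of 1.53. The intracellular *POX06079*, which splits cellobiose after uptake, dominated the list with 10024, 9786 and 9977 FPKM at 48 h and 2191, 1822 and 2366 FPKM at 4 h (4.67-fold, 2.23 ± 0.13, adjusted p = 6.5e-07). The extracellular *POX06835/Bgl1* was far lower, at 107, 143 and 111 FPKM at 48 h and 31.1, 27.1 and 26.4 FPKM at 4 h (2.05 ± 0.14). *POX01473* had the steepest rise of the list, with 102, 63.1 and 91.3 FPKM at 48 h and 1.8, 3.12 and 1.72 FPKM at 4 h (4.75 ± 0.21). *POX00968* (0.94) was not called, but passed without MC 4 h library 2 (1.16) or MC 48 h library 1 (1.00). Uptake was represented by the cellodextrin transporters, of which 1 of 3 rose: *POX06051/CdtC* had 20643, 19557 and 18654 FPKM at 48 h and 5397, 4740 and 6117 at 4 h (1.86 ± 0.14, adjusted p = 3.1e-06), while *POX05915/CdtD* (0.58) and *POX01335/CdtG* (0.81) were not.

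**Figure D2:**
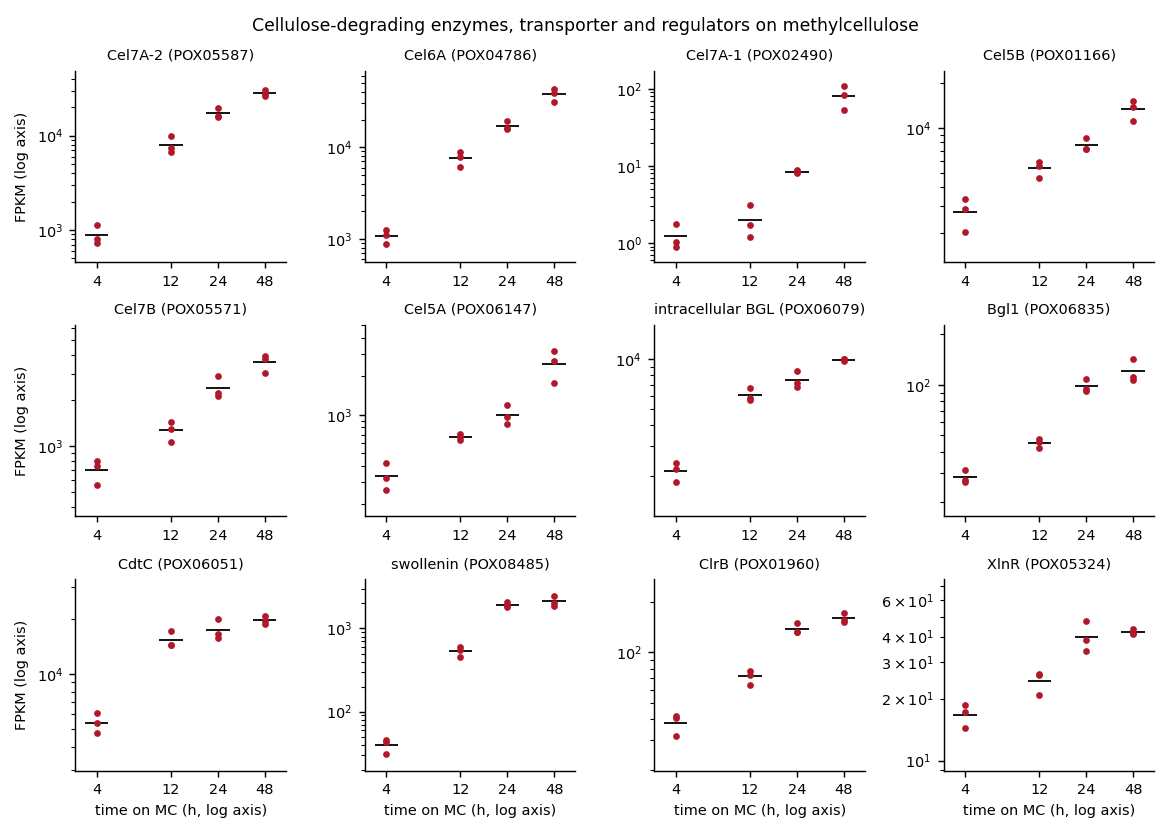
FPKM (y axis, log scale, its range set for each panel) of 12 genes for cellulases, uptake and regulators in each MC library at 4, 12, 24 and 48 h (x axis, log scale), points being libraries and bars the means of 3. *Cel6A* (*POX04786*) averaged 7593 FPKM at 12 h and 17150 FPKM at 24 h, and in each of the 12 panels the 3 points at 48 h lie above the 3 at 4 h.

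Proteins that loosen the cellulose surface rose as well. Of the 5 genes for cellulose monooxygenases and swollenin, 3 rose and 1 fell (median 3.69), and their sum was 10.4-fold higher. Swollenin *POX08485* had 2047, 1870 and 2468 FPKM at 48 h and 45.9, 31.4 and 43.4 FPKM at 4 h (5.70 ± 0.17, adjusted p = 6.6e-09). *POX08897*, listed as a monooxygenase in one source and as swollenin in another, changed by 3.94 and *POX02308/Cel61A* by 3.69. The putative monooxygenase *POX05968* went the other way, with 21.3, 25.8 and 22.7 FPKM at 48 h and 261, 203 and 212 FPKM at 4 h (−3.22 ± 0.13).

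Xylanase genes rose too. Of 10 endo-xylanases, which cut the backbone of the main hemicellulose, 5 rose and 1 fell, with a median of 1.05 and a 6.56-fold higher sum. *POX08484/Xyn11B* had 1182, 908 and 1557 FPKM at 48 h and 74.7, 59.1 and 66.6 at 4 h (4.14 ± 0.19). *POX00063/Xyn10A* started higher and changed less, with 929, 666 and 1354 FPKM at 48 h and 275, 226 and 335 at 4 h (1.77 ± 0.24). *POX06601* was close to nothing at 4 h (0.72, 0.72 and 0.45 FPKM) and reached 91.5, 51.2 and 117 FPKM at 48 h (5.67 ± 0.26). *POX06783/Xyn11A* (3.08) and *POX05916* (2.63) rose too, *POX01417* fell by 2.81, and the other 4 were not called. Of the 26 tested genes for side-chain enzymes and β-xylosidases, 8 rose and 4 fell (46.2% called, beside 29.2% of all genes, median 0.67). Scaled to the total without MEivory, 13 rose and 4 fell. The putative acetyl xylan esterase *POX01218* (4.02) and the putative arabinofuranosidase *POX09154* (3.60) led the rises.

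Enzymes for mannan, galactan and pectin, other polymers of plant cell walls, were likewise called higher more often than lower. Of 16 mannan and galactan genes, 9 rose and none fell, with a median of 1.30 and an 8.42-fold higher sum. The endo-mannanase *POX01937* carried most of that sum, with 4149, 3211 and 4130 FPKM at 48 h and 300, 232 and 331 FPKM at 4 h (3.73 ± 0.16, adjusted p = 8.1e-08). The putative galactanase *POX09801* changed by 5.03 and the putative α-galactosidase *POX09085* by 2.60. Of 26 pectin genes tested, 10 rose and 3 fell (median 0.85), or 16 and 2 when scaled to the total without MEivory. The putative polygalacturonase *POX05580* had 292, 194 and 290 FPKM at 48 h and 1.33, 1.44 and 1.07 at 4 h (6.81 ± 0.17), and the putative rhamnosidase *POX01225* changed by 6.58, while another putative polygalacturonase, *POX07304*, fell by 2.95.

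Starch enzymes did not share this pattern. Of 12, 2 rose and 3 fell, beside 16.9% of all genes higher and 12.2% lower, so the higher count was near the share over all genes. Their median of 0.06 turned to −0.04 when libraries were scaled by the median of ratios. Glucoamylase *POX01356/Amy15A*, which frees glucose from starch chain ends, had 12.5, 9.91 and 14.6 FPKM at 48 h and 71.5, 61.1 and 73.2 FPKM at 4 h (−2.40 ± 0.15, adjusted p = 8.3e-07). The α-amylase *POX09352/Amy13A* had 10.2, 10.2 and 10.9 FPKM at 48 h and 5.25, 4.99 and 6.29 at 4 h, and its change of 0.82 was below the fold threshold. *AmyR* (*POX03890*), the activator of amylase genes, had 6.97, 5.34 and 6.92 FPKM at 48 h and 10.1, 11.4 and 8.79 FPKM at 4 h (−0.58) and was not called.

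Hydrolases of the fungal wall made up another strongly changing group. Of 18 chitin and chitosan hydrolases tested, 8 rose and 5 fell (72.2% called, beside 29.2% of all genes, median 0.85, 6.27-fold higher sum). The putative chitinase *POX00089* had 5737, 6605 and 5904 FPKM at 48 h and 311, 229 and 295 FPKM at 4 h (4.46 ± 0.14, adjusted p = 1.1e-08), which made it the largest part of the sum. The putative chitinases *POX09387* (5.62), *POX08171* (5.21) and *POX03021* (3.38) rose with it. Of 15 hydrolases of β-1,3- and α-1,3-glucan tested, 7 rose and 2 fell (60.0% called), with a median of 0.87. The putative α-1,3-glucanase *POX09110*, whose substrate lies in the outer wall, was at 208, 244 and 208 FPKM at 48 h and at 0.19, 0.06 and 0.03 FPKM at 4 h (7.66 ± 0.12), and the putative β-1,3-glucanases *POX02423* (5.58), *POX00105* (5.37) and *POX06959* (4.57) rose too. The glucan list as a whole overlapped between the times, with 0.225%, 0.289% and 0.256% of the total at 48 h and 0.179%, 0.255% and 0.117% at 4 h (exact permutation test, two-sided p = 0.2).

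Conidiation genes were strongly changed. The study named the listed genes as members of MEdarkgrey, another co-expression module that it built from these same libraries. Their counts are therefore not independent evidence of direction. Of 12 listed, 10 rose and none fell, with a median of 3.60 beside 0.12 over all genes, and together they held 0.865%, 0.768% and 0.929% of the total at 48 h and 0.0218%, 0.0217% and 0.0243% at 4 h (39.0-fold). *POX06534/BrlA* had 74.5, 94.4 and 78.9 FPKM at 48 h and 1.29, 0.74 and 2.09 FPKM at 4 h (60.2-fold, 5.17 ± 0.20, adjusted p = 3.7e-08). *POX07025/AbaA*, which acts after BrlA in *A. nidulans*, had 16.6, 18.9 and 15.5 FPKM at 48 h and 1.17, 1.54 and 1.36 FPKM at 4 h (2.93 ± 0.14). Both defining markers of conidia-forming hyphae were thus near 1 FPKM at 4 h and well above it in every library at 48 h. *POX07099/FlbD*, an upstream regulator in *A. nidulans*, changed by 2.87 and *POX05090/TmpA* by 1.16, a call that was lost without MC 4 h library 1 (0.985), while *POX07586/FlbB* (0.84) and the kinase gene *POX00872/NimX* (0.14) were not called.

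The spore pigment genes followed. The polyketide synthase gene *POX01430/Alb1* (3.93) and *POX03412/ArpA* (5.88) rose. The ArpA-like *POX01176* had 4891, 3894 and 5062 FPKM at 48 h and 9.86, 14 and 9.45 at 4 h (8.58 ± 0.17), the ArpB-like *POX01179* changed by 8.68, and *POX01390* and *POX01391*, named with them, by 7.01 and 3.26. The cellulase, xylanase and wall hydrolase genes above moved in the same libraries as this list, the 48 h libraries were also the shallower ones, and the part of either in those changes was not tested.

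Of 16 listed regulators of cellulase and xylanase genes, 5 rose (31.2%, beside 16.9% of all genes) and none fell, with a median of 0.56 beside 0.12 over all genes. *POX01960/ClrB*, the central activator, had 152, 155 and 171 FPKM at 48 h and 40.6, 31.8 and 41.6 FPKM at 4 h (4.18-fold, 2.04 ± 0.13, adjusted p = 9.0e-07). *POX05324/XlnR*, the xylanase activator, had 41.8, 43.3 and 41.1 FPKM at 48 h and 17.2, 14.3 and 18.5 at 4 h (1.29 ± 0.12). *POX01167/CxrA*, a regulator of cellulase and xylanase genes, had the largest change of the list, with 86.0, 86.9 and 80.7 FPKM at 48 h and 7.22, 5.18 and 7.87 at 4 h (3.48 ± 0.15). The zinc-cluster genes *POX01474* (3.41) and *POX01118* (1.68) also rose. Of the 5, *ClrB*, *XlnR*, *POX01474* and *POX01118* are members of MEivory, which the study built from these same libraries. The share of 31.2% is therefore not independent evidence of direction.

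The repressor gene *POX07254/CreA* was at 591, 710 and 604 FPKM at 48 h and at 606, 569 and 615 FPKM at 4 h. The groups overlapped, and its change of 0.09 turned to −0.04 under median-of-ratios scaling. *POX03837/ClrA* (−0.59), *POX02071/ClrB-2* (0.96), *POX04420/CxrB* (−0.33), *POX08292/MBF1* (0.14) and *POX03888/PrtT* (−0.56) did not reach the threshold, though *ClrB-2* passed without MC 4 h library 3 (1.15), MC 48 h library 2 (1.00) or MC 48 h library 3 (1.00), and so did the zinc-cluster gene *POX07871* (0.98) without MC 4 h library 1 (1.02), MC 4 h library 3 (1.11) or MC 48 h library 2 (1.01). Over all 274 transcription factors tested, 52 rose and 17 fell (25.2% called, beside 29.2% of all genes), with a median of 0.31. Scaled to the total without MEivory, the counts were 82 and 10. *BrlA*, the winged helix gene *POX09469* (144, 133 and 156 FPKM at 48 h, 0.37, 0.11 and 1.19 at 4 h, log2 change 6.61) and the C2H2 gene *POX05726* (4.24) were among the 4 largest. The remaining one, *POX04227*, had 38.4, 39.0 and 35.8 FPKM at 48 h and was listed at 0 in all 3 libraries at 4 h.

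**Figure D3:**
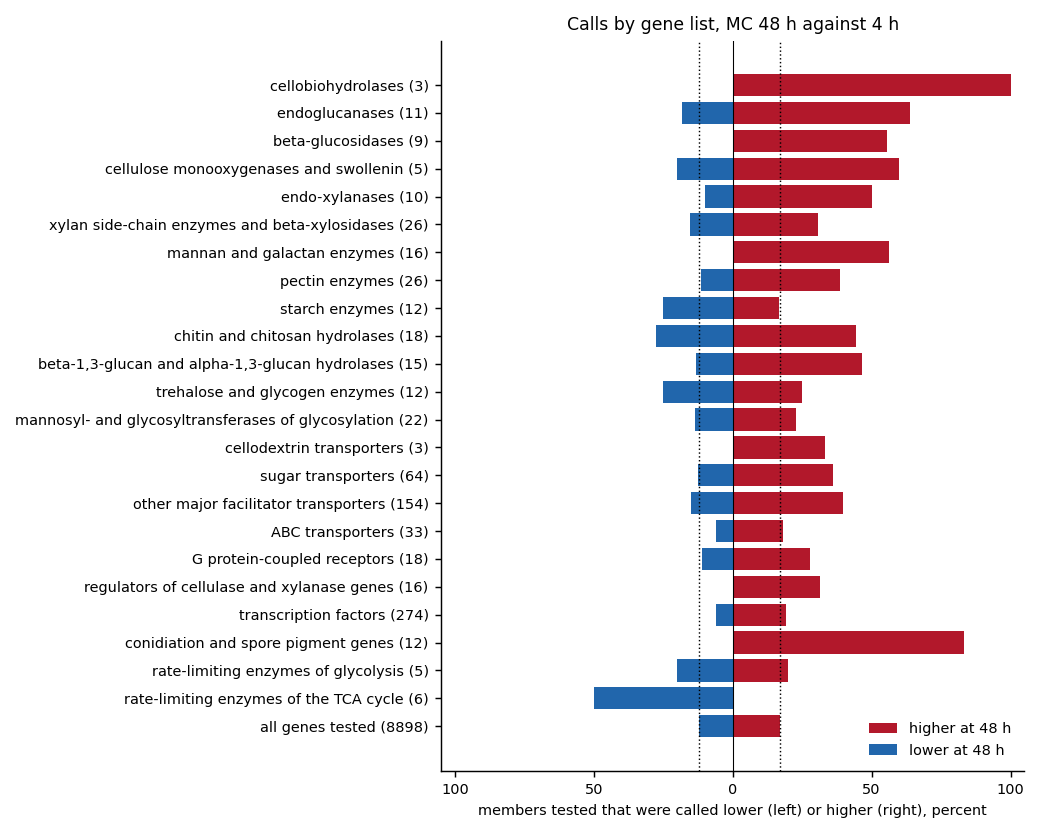
Share of the tested members of each gene list (y axis, number tested in brackets) called higher (right) or lower (left) at MC 48 h against MC 4 h (x axis, percent), with dotted lines at the shares over all genes tested, 16.9% and 12.2%. All 3 cellobiohydrolases and 10 of 12 conidiation genes were higher, and no tricarboxylic acid cycle gene of the list was.

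Central metabolism was represented by short lists of rate-limiting genes. Over all genes tested, 16.9% were higher and 12.2% lower at 48 h, with a median of 0.12. Of the 6 genes listed as rate-limiting in the tricarboxylic acid cycle, none rose and 3 fell, with a median of −1.11. That count was 5 under median-of-ratios scaling or without MC 48 h library 1, and 2 when scaled to the total without MEivory. The fall was not particular to MC. At 48 h against 4 h, 3 of the 6 were lower on NC (median −1.037), 2 on HEC (−0.646) and 2 on AV (−0.635), and none was higher. The change on MC was called higher than on NC for 1 gene, different from HEC for none and lower than on AV for 1. Citrate synthase *POX01075*, which feeds acetyl units into the cycle, had 771, 816 and 763 FPKM at 48 h and 2313, 2393 and 1905 FPKM at 4 h (−1.48 ± 0.12, adjusted p = 6.3e-06). The second citrate synthase *POX04356* fell by 2.07 and isocitrate dehydrogenase *POX09065* by 1.24, while *POX06270* (−0.95) and the oxoglutarate dehydrogenase genes *POX00538* (−0.49) and *POX09663* (−0.97) were not called. In glycolysis, 1 of 5 genes tested rose and 1 fell. Pyruvate kinase *POX02744* had 163, 161 and 170 FPKM at 48 h and 397, 411 and 443 FPKM at 4 h (−1.33 ± 0.10). The hexokinase gene *POX05787* had 115, 157 and 112 FPKM at 48 h and 21.5, 21.1 and 19.9 FPKM at 4 h (2.55 ± 0.14), and the 2 other tested hexokinase genes and phosphofructokinase *POX08888* had changes between −0.65 and −0.22.

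Of 64 sugar transporters tested, 23 rose and 8 fell (median 0.60). Of 154 other major facilitator genes 61 rose and 23 fell (median 0.54), or 73 and 15 when scaled to the total without MEivory. Over all genes 16.9% were higher and 12.2% lower, so the lower counts of both lists were near that share. The sharpest fall was that of *POX07227*, a sugar:proton symporter, at 1.51, 1.35 and 1.35 FPKM at 48 h against 99.6, 126 and 118 FPKM at 4 h (−5.58 ± 0.12). The sugar transporters *POX04918* (4.45), *POX01472* (4.23) and *POX01566* (3.56) rose. The facilitator *POX01168* had 1106, 1607 and 1259 FPKM at 48 h and 0.92, 0.55 and 0.53 FPKM at 4 h (9.62 ± 0.16). Of 33 ABC transporters tested 6 rose and 2 fell (24.2% called, beside 29.2% of all genes), which became 11 and 2 when scaled to the total without MEivory and 8 and 4 with a pseudocount of 0.1. Of 18 G protein-coupled receptors, which sense nutrients at the cell surface, 5 rose and 2 fell (38.9% called, beside 29.2% of all genes). Only 1 fell without MC 4 h library 2 or MC 48 h library 3, and none when scaled to the total without MEivory. *POX01973* was the most abundant of the receptors named, with 952, 1214 and 840 FPKM at 48 h and 304, 308 and 314 FPKM at 4 h (1.68 ± 0.14).

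Of 12 trehalose and glycogen genes 3 rose and 3 fell, with a median of −0.13 that turned to 0.20 when scaled to the total without MEivory, and only 1 fell without MC 48 h library 3 or under that scaling. Of 22 tested mannosyl- and glycosyltransferases 5 rose and 3 fell (36.4% called, beside 29.2% of all genes, median 0.25). The mitochondrial chaperone gene *POX03367/ClpX* had 283, 268 and 253 FPKM at 48 h and 131, 97.3 and 143 at 4 h (1.12 ± 0.15), a call lost without MC 4 h library 2 (0.96). The protein disulfide isomerase genes *POX07086* (0.50) and *POX07745* (0.54) were not called. Of the co-expression modules that the study built from these same libraries, 82 of 108 tested MEivory genes rose and none fell (median 1.81), and 41 of 140 MEroyalblue genes rose and 13 fell (median 0.45), or 59 and 8 when scaled to the total without MEivory. Because the modules, and the gene lists the study drew from them, were chosen on these libraries, their counts are not independent evidence of direction. MEivory held 27.4%, 22.2% and 28.1% of the FPKM total at 48 h and 3.73%, 2.85% and 3.81% at 4 h, and without *POX09827* 14.2%, 13.2% and 15.4% at 48 h and 2.23%, 1.88% and 2.49% at 4 h.

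Several of the strongest rises had consecutive gene numbers. The 17 genes from *POX01166* to *POX01182* were all called higher, with changes between 2.30 and 10.28 and a median of 8.30, and they held 9 of the 10 largest rises of the whole comparison. They include *Cel5B*, *CxrA*, the facilitator *POX01168* and the ArpA-like and ArpB-like genes, and most of the rest have no annotation in the sources used. Another 17 consecutive numbers, *POX05850* to *POX05866*, were also all higher (1.51 to 6.37, median 4.89), at means of 9.82 to 180 FPKM at 48 h and 0.11 to 3.33 FPKM at 4 h. The longest runs of lower genes were *POX09332* to *POX09340* (9 genes, median −2.24) and *POX09354* to *POX09361* (8 genes, median −3.55). The consecutive numbers *POX01472* to *POX01476* (5 genes) were also all higher. Those up to *POX01475* are listed as a sugar transporter, a β-glucosidase, a zinc-cluster gene and a hypothetical protein, and they changed by 4.23, 4.75, 3.41 and 4.31. These runs were picked out after their values were seen, and they rest on the numbering of the gene identifiers, since no genome positions were used.

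**Figure D4:**
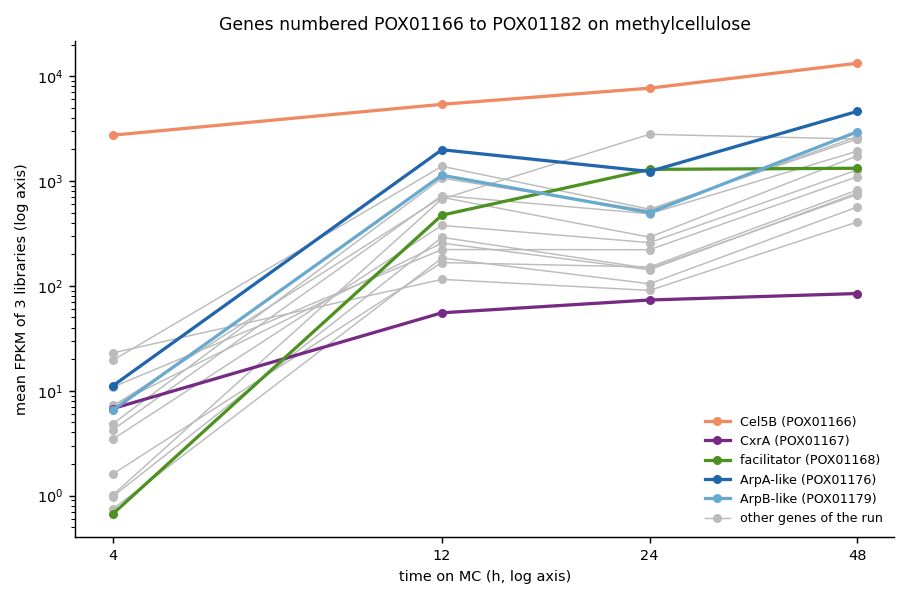
Mean FPKM of 3 MC libraries (y axis, log scale) at 4, 12, 24 and 48 h (x axis, log scale) for the 17 genes numbered *POX01166* to *POX01182*, each line being a gene and 5 annotated genes coloured. All 17 are higher at 48 h than at 4 h, and 13 have a lower mean at 24 h than at 12 h.

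The steps of the time course placed the changes. Between 12 h and 4 h 498 genes were higher (5.60%) and 559 lower (6.28%), between 24 h and 12 h 640 were higher (7.19%) and 276 lower (3.10%), and between 48 h and 24 h 333 were higher (3.74%) and 336 lower (3.78%). The share of higher calls in the middle step was 69.9%, and 56.0% under median-of-ratios scaling. Of the 1089 genes lower at 48 h against 4 h, 53.1% had their largest step by 12 h, whereas of the 1507 higher genes 30.1% had it then and 43.9% between 12 h and 24 h.

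In the step to 12 h, 5 of 12 conidiation genes and 3 of 11 endoglucanases rose, beside 5.60% of all genes. Of the 3 cellobiohydrolases 2 rose in it, *Cel6A* (*POX04786*) by 2.80 and *Cel7A-2* (*POX05587*) by 3.18, and both rose again to 24 h (1.19 and 1.12). *CdtC* (*POX06051*) and the intracellular β-glucosidase *POX06079* rose by 12 h (1.5 and 1.51), and their later steps were below the threshold. Of the 18 chitin and 15 glucan hydrolases tested, none rose in the step to 12 h (5.60% of all genes) and 2 and 1 fell (6.28%). None rising among so few genes is near the share over all genes. In the step to 24 h 6 and 5 rose (7.19%) and 1 and 2 fell (3.10%). In the step to 48 h 5 and 5 rose (3.74%) and 3 and 2 fell (3.78%). The chitinase *POX00089* averaged 147 FPKM at 12 h and 2764 FPKM at 24 h (4.23). *BrlA* (*POX06534*) was not called at 12 h (0.91) and rose to 24 h (2.98) and again to 48 h (1.29), and *AbaA* (*POX07025*) rose only in the last step (2.17).

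The run from *POX01166* to *POX01182* had a course of its own. Of its 17 genes 16 rose to 12 h, 13 then had a lower mean at 24 h than at 12 h (4 of them called lower, 2 genes of the run called higher), and 13 rose to 48 h. The ArpB-like *POX01179* averaged 1135 FPKM at 12 h, 499 FPKM at 24 h and 2946 FPKM at 48 h. The same dip was seen in *POX01473*, at 30.6, 12.2 and 85.4 FPKM at 12, 24 and 48 h, and in the polygalacturonase *POX05580*, at 84.8 and 40.5 FPKM at 12 and 24 h.

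To ask which changes were particular to MC, the change from 4 h to 48 h on MC was set against that without a carbon source, on HEC and on AV, each in one model with an interaction term. The 3 comparisons share the MC libraries and so are not independent of each other. Between 48 h and 4 h themselves, 30.5% of genes were called on NC, 32.6% on HEC and 24.7% on AV. The change on MC was higher for 497 genes (5.59%) and lower for 1047 (11.8%) than that on NC, higher for 289 (3.25%) and lower for 1328 (14.9%) than that on HEC, and higher for 485 (5.45%) and lower for 999 (11.2%) than that on AV. These splits moved with scaling. Under median-of-ratios scaling they were 677 higher and 791 lower for NC, 512 and 794 for HEC, and 669 and 666 for AV.

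For the cellobiohydrolases all 3 changes were higher on MC than on NC and HEC, and 1 of 3 was higher than on AV. *Cel7A-2* (*POX05587*) averaged 28070 ± 2234 FPKM on MC, 936.9 ± 281.6 on HEC, 3032 ± 655 on AV and 6.84 ± 1.13 on NC at 48 h (SD, n = 3 each). Its change on MC exceeded that on NC by 4.13 and that on HEC by 3.34 (adjusted p = 9.8e-07 and 1.4e-05), and differed from that on AV by 0.40 (adjusted p = 0.36), since it also rose by 4.61 on AV from a lower level at 4 h. *Cel6A* (*POX04786*) showed the same order, at 37620 FPKM on MC, 1202 on HEC, 3894 on AV and 9.79 on NC, with differences of 3.20, 3.38 and −0.46 against NC, HEC and AV. The levels at 48 h alone were not tested between carbon sources. *Cel7A-1* (*POX02490*) stood out, with changes that exceeded those on all 3 (4.6, 5.01 and 4.07).

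**Figure D5:**
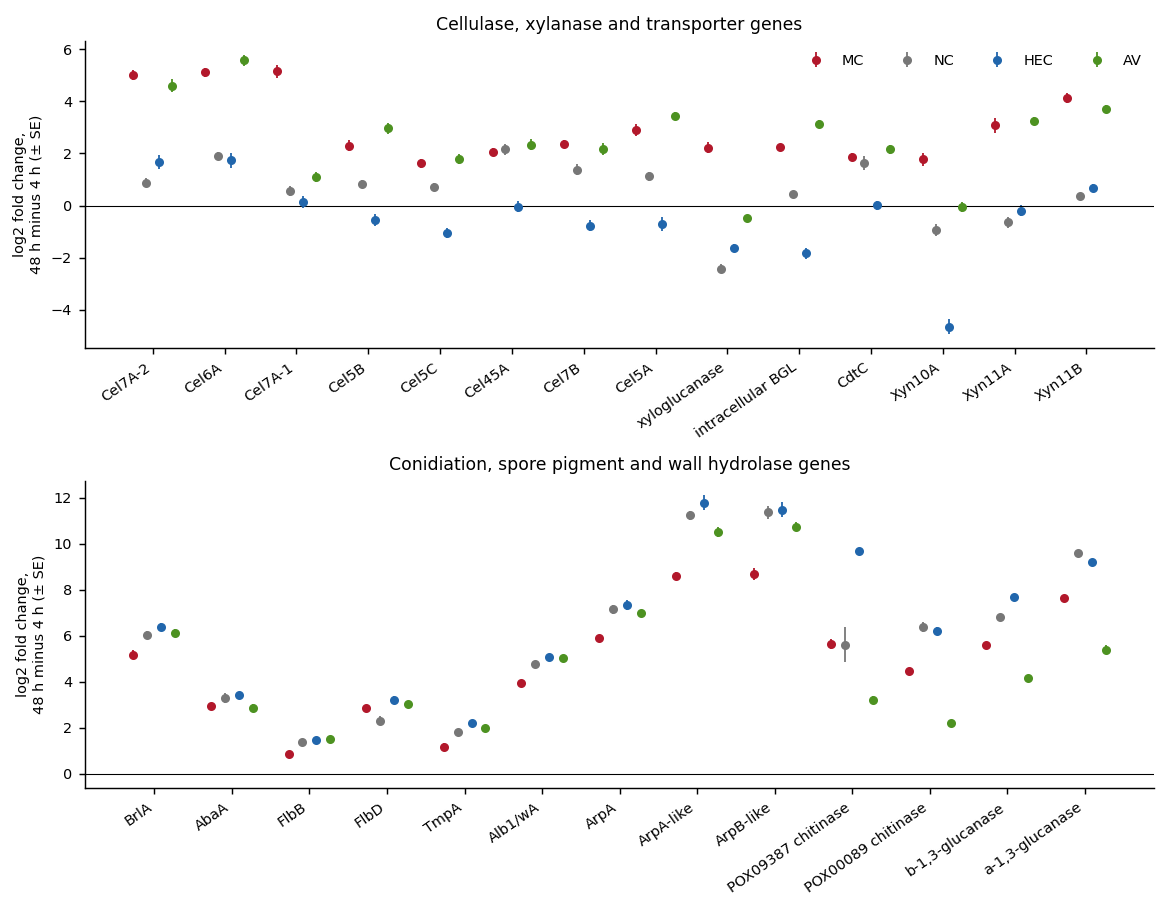
Log2 change at 48 h against 4 h (y axis, log2(FPKM + 1) scale, error bars SE of the fit on 3 against 3 libraries) on MC, NC, HEC and AV, for cellulase, xylanase and transporter genes (upper panel) and conidiation, pigment and wall hydrolase genes (lower panel). The change of *Cel7A-2* (*POX05587*) was 5.01 on MC, 0.88 on NC, 1.67 on HEC and 4.61 on AV, while that of *BrlA* (*POX06534*) was 5.17, 6.04, 6.38 and 6.11.

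MC and HEC are both ethers of cellulose and differ in the substituent, and several genes rose on MC and fell on HEC. The intracellular β-glucosidase *POX06079* changed by 2.23 on MC and by −1.84 on HEC (difference 4.07, adjusted p = 4.8e-07), the xylanase *POX00063/Xyn10A* by 1.77 on MC and −4.64 on HEC (difference 6.42, adjusted p = 5.6e-07), and the xyloglucanase *POX06983* by 2.22 on MC and −1.61 on HEC (3.84). For *Xyn10A* the level at 48 h was 983 ± 347 FPKM on MC and 13.9 ± 3.43 on HEC (SD, n = 3 each), and at 4 h it was 279 and 384 FPKM. Over the lists, 7 of 11 endoglucanases, 7 of 10 endo-xylanases and 2 of 3 cellodextrin transporters had a higher change on MC than on HEC, and none a lower one. Over all genes 3.25% had a higher and 14.9% a lower change, so in lists this short the absence of lower calls says little. *POX02308/Cel61A* did not share this pattern, with a change of 3.69 on MC and 4.55 on HEC (difference −0.86, not called). On NC it changed by 5.88 (difference −2.20, adjusted p = 0.0054). Of the 5 monooxygenase and swollenin genes, 2 had a higher and none a lower change on MC than on HEC (median difference −0.68). Against NC, 2 of them had a higher and 2 a lower change, beside 5.59% and 11.8% of all genes.

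Against AV the endoglucanase list split evenly, 2 higher and 2 lower, and for the xylanases 1 was higher and 1 lower. *POX06601* changed by 5.67 on MC and 5.84 on AV, while its changes on NC and HEC were 0.08 and 0.21. The xyloglucanase *POX06983* changed more on MC than on AV (2.69), as did the putative endoglucanase *POX02740* (3.47), the mannanase *POX01937* (2.49) and the polygalacturonase *POX05580* (3.02). Of the run that starts at *POX01472*, the genes up to *POX01475* were higher against all 3. The zinc-cluster gene *POX01474* was higher by 2.81 against NC, 2.88 against HEC and 2.0 against AV. Of the cellulase regulators, *ClrB* (*POX01960*) had a higher change than on NC and HEC (1.65 and 1.55) and not than on AV (0.45), and *CxrA* (*POX01167*) differed from none of them (−0.26, 0.06 and −0.26).

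Of the 12 conidiation genes, none had a higher change on MC than on NC, HEC or AV, and 3, 6 and 4 had a lower one, or 2, 3 and 2 under median-of-ratios scaling. Over all genes 5.59%, 3.25% and 5.45% had a higher and 11.8%, 14.9% and 11.2% a lower change. The median difference of the list was −0.59, −0.86 and −0.78, beside −0.17, −0.32 and −0.20 over all genes tested. The list held 0.768% to 0.929% of the FPKM total on MC at 48 h, and on average 2.33% on NC, 2.07% on HEC and 1.65% on AV. *BrlA* (*POX06534*) averaged 82.6 ± 10.5 FPKM on MC, 138.6 ± 33.7 on NC, 141.4 ± 17.4 on HEC and 132.4 ± 12.1 on AV at 48 h (SD, n = 3 each), and its change differed by −0.87, −1.21 and −0.94, of which only that against HEC was called (adjusted p = 0.0037). The ArpA-like *POX01176* averaged 4616 FPKM on MC, 12720 on NC, 10960 on HEC and 8130 on AV, with differences of −2.64, −3.20 and −1.93, all called. The lower conidiation level on MC went with the higher changes of the cellulase genes against NC and HEC, and its part in those differences was not tested.

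Several wall hydrolases had a change on MC between those on NC and AV. The chitinase *POX00089* averaged 6082 ± 461 FPKM on MC, 21420 ± 1791 on NC, 12860 ± 1305 on HEC and 1126 ± 276 on AV at 48 h (SD, n = 3 each), so that its change on MC was lower than on NC (−1.90) and HEC (−1.76) and higher than on AV (2.27). The α-1,3-glucanase *POX09110* (−1.95, −1.53 and 2.27) and the β-1,3-glucanase *POX02423* (−1.23, −2.08 and 1.45) had the same order. Over the lists, 7 and 9 of 18 chitin hydrolases and 5 and 5 of 15 glucan hydrolases had a lower change than on NC and HEC, whereas against AV 5 and 4 had a higher and 4 and 1 a lower one. Over all genes 11.8% and 14.9% had a lower change than on NC and HEC, and against AV 5.45% had a higher and 11.2% a lower one. Under median-of-ratios scaling the lower counts against NC and HEC were 5 and 5 for the chitin hydrolases and 5 and 4 for the glucan hydrolases.

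Of the 12 starch enzymes 7, 5 and 5 had a lower change on MC than on NC, HEC and AV, beside 11.8%, 14.9% and 11.2% of all genes. Under median-of-ratios scaling the counts were 7, 4 and 3, and no starch enzyme had a higher change. *Amy13A* (*POX09352*) averaged 10.4 FPKM on MC, 1497 on NC, 496 on HEC and 71.6 on AV at 48 h, with differences of −6.10, −5.68 and −2.34. *Amy15A* (*POX01356*), which fell on MC, rose by 3.36 on NC (difference −5.75). *AmyR* (*POX03890*) had a lower change than on each of them, by −2.40, −1.74 and −1.76. *POX09827* differed from AV alone, with a change of −0.31 there (difference 3.57, adjusted p = 2.0e-05), and averaged 119300 ± 27450 FPKM on MC, 46770 ± 24170 on NC, 46760 ± 26650 on HEC and 722 ± 183 on AV at 48 h (SD, n = 3 each).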

How the data were processed

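RNA was extracted with TRIzol from mycelium, with 3 libraries per condition that the study gives as biological replicates. According to the submitters' processing notes, the authors used BWA 0.7.10-r789, Bowtie2 2.1.0 and RSEM 1.2.12. The deposited files hold gene-level FPKM, which the authors computed with RSEM. Genes left out of a library's file were set to 0. The study compared conditions with a count model, which cannot take FPKM, so limma 3.58.1 (R 4.3.3) was used here on log2(FPKM + 1) with a mean-dependent variance trend. Genes entered if they averaged 1 FPKM or more across all 72 libraries. A gene was called at an unadjusted two-sided p of at most 0.05 and an absolute log2 change of at least 1, as in the study. Adjusted p-values are Benjamini-Hochberg over all genes tested. The main fit held 6 libraries, each interaction 12 and the steps 12. FPKM does not keep read totals, so precision rests on the 3 libraries per group.

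The libraries, gene lists and tests were chosen with earlier results of these data known, and lists are described by counts and medians, without a set test. Genes were named if they belonged to the short lists of cellulolytic, regulator, conidiation or rate-limiting genes, were among the 4 largest non-overlapping calls of another list, the 10 largest rises or falls, the 4 largest differences per direction from NC, HEC or AV, or the 3 highest genes at either time. Those without annotation are mostly given as values alone. Roles came from the study's text and lists, and 0 gene identifiers matched the reference table. The deleted *PoxKu70* was not analysed here. The fits were tested on simulated data. Alternatives were a pseudocount of 0.1, no filter, 2 scalings, larger fits, a replicate block and leaving out each library.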

Additional observations from a re-analysis of the deposited data

Results flagged for a closer look

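The change from 4 h to 48 h on MC differed from that on another carbon source, by a test of the interaction term (limma), for many genes. Against NC 497 genes had a higher and 1047 a lower change, against HEC 289 a higher and 1328 a lower, and against AV 485 a higher and 999 a lower one. Among the 4 largest differences in each direction, annotated genes with a higher change on MC than on NC were the xylanase *POX06601* (5.59) and *POX08897*, listed as monooxygenase or swollenin (4.85), and 2 genes without annotation had 4.90 and 4.78. With a lower change than on NC were *POX09352/Amy13A* (−6.10) and *POX01356/Amy15A* (−5.75), and 2 genes without annotation (−6.02 and −5.56).

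Against HEC the changes of *POX00063/Xyn10A* (6.42), *POX06601* (5.46), *POX01475* (5.01), a hypothetical protein of MEivory, and *POX02490/Cel7A-1* (5.01) were the largest higher ones, and 4 genes without annotation had −8.98, −6.87, −6.72 and −6.61. Against AV the putative cutinase *POX05132* (6.09), *POX08307*, named as a formaldehyde-activating enzyme or centromere protein V (4.6), the triacylglycerol lipase *POX09353* (4.54) and *Cel7A-1* (4.07) led, and 4 genes without annotation had −10.07, −9.36, −9.32 and −8.63.

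The cutinase *POX05132* had 91.9, 68.5 and 159 FPKM at MC 48 h and 3793, 3243 and 2678 FPKM at MC 4 h, and its difference from AV came from a deeper fall there, to an average of 4.03 FPKM at 48 h against 10880 FPKM at 4 h. The lipase *POX09353* rose on MC by 3.11 and fell on AV by 1.43.

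Several named genes outside the largest differences above had all libraries at 48 h above all at 4 h on MC and below them on another carbon source. The xyloglucanase *POX06983* did so against NC (4.65) and HEC (3.84), the endoglucanase *POX01896/Cel5C* against HEC (2.69) and the intracellular β-glucosidase *POX06079* against HEC (4.07).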

How the results depend on the processing

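The counts of calls at 48 h against 4 h stayed within 1.5 times except when libraries were scaled to the FPKM total without MEivory, where 2274 genes were higher and 695 lower. For the difference from HEC, median-of-ratios scaling gave 512 higher and 794 lower calls. The cause of neither shift was tested. Leaving out each library in turn gave 2540 to 2649 calls on MC. The replicate numbers did not pair the MC 48 h and MC 4 h samples (r of same-numbered deviations −0.05, 0.20 and 0.02). A replicate block gave 1507 higher and 1090 lower calls, against 1507 and 1089 without it. Between MC and NC, HEC or AV at the same time, r ranged from −0.30 to 0.60, and the labels do not settle whether batches were shared. With the block, the differences had 1559 (NC), 1620 (HEC) and 1491 (AV) calls, against 1544, 1617 and 1484 without it. Of the named genes 148 kept direction and call under every alternative, 17 changed their call and 9 changed sign, all 9 uncalled to begin with. Scaled without MEivory, the sign turned for *POX00963* (0.081), *POX03430* (0.308), *POX04274* (0.182), *POX04420* (0.008), *POX08882* (0.037) and *POX08888* (0.105), and under the median of ratios for *POX02484* (−0.091), *POX07254* (−0.036) and the summed FPKM of transcription factors (−0.077). Leaving out single libraries gave ranges across 0 for *POX02484* (−0.147 to 0.274), *POX03430* (−0.114 to 0.094), *POX04274* (−0.131 to 0.051) and 1 gene without annotation (−0.168 to 0.23). Genes below 1 FPKM in most libraries are the least certain, since the pseudocount of 1 shrinks their change.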

Other observations

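A set of 84 genes peaked at 24 h on MC, called higher against 12 h and lower again at 48 h, and 45 of them were not called between 48 h and 4 h. Facilitator transporters were among them: *POX07863* averaged 2.32, 13.6, 508 and 14.3 FPKM at 4, 12, 24 and 48 h, and *POX07864* 0.03, 0.05, 14.1 and 0.09 FPKM. The chitin hydrolase *POX08903* averaged 5.59, 11.5, 67.8 and 26.5 FPKM at these times. The opposite course, lower at 24 h than at 12 h and higher again at 48 h, was called for 26 genes, 4 of them in the run *POX01166* to *POX01182*, and included the mannan or galactan enzyme *POX00759*, which averaged 30.1, 87.0, 38.5 and 82.1 FPKM.

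Of 14 peptidases of MEroyalblue 4 rose and 1 fell at 48 h against 4 h (35.7% called, beside 29.2% of all genes). Of 3 tested polyketide or non-ribosomal peptide synthetase genes of the modules 2 rose and 1 fell.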
